A study of Mus musculus with 6 samples.

Results

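The genes described here are 10 genes of melanin synthesis and of the melanosome, namely Dct, Tyr, Tyrp1, Pmel, Mlana, Slc45a2, Slc24a5, Oca2, Trpm1 and Gpnmb. They were taken by symbol, and all 10 were found among the 17091 genes of the deposited table. RNA was sequenced from the microdissected lateral wall of the cochlea, the outer wall that holds the stria vascularis and the spiral ligament, of 3 old CBA/CaJ mice aged 2.5 years and 3 young CBA/CaJ mice aged 2 months. CBA/CaJ is an inbred strain, no transgene or treatment is named in the labels, and each library pools the 2 cochleas of a mouse. The study's title asks for molecular changes with age.

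Intermediate cells of the stria vascularis are melanocytes that settle in the cochlea during development. They lie between the marginal cells, which face the endolymph, and the basal cells, and their potassium channel Kcnj10 is needed for the endocochlear potential. As in skin, tyrosinase starts melanin synthesis inside the melanosome, the related enzymes Dct and Tyrp1 act on later intermediates, Pmel forms the fibrils on which melanin is laid down, and transporters set the ions and the pH of the organelle.

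Values are normalised read counts, reads per gene scaled by the depth factor of each library, and the reads recovered from them summed to between 37055355 and 39103397 per library. The tissue label names the lateral wall while the source label names auditory nerve cells. Defining strial genes were abundant in both groups. The marginal cell channel gene Kcnq1 averaged 10250 ± 2085 in old and 11648 ± 887 in young mice, the basal cell gene Cldn11 averaged 22686 ± 1267 in old and 25322 ± 2584 in young mice, and Kcnj10 averaged 44729 ± 14688 in old and 45372 ± 4003 in young mice (SD, n = 3 each). Summed over their lists, marginal and basal cell markers were each lower in every old library than in every young one: 12 marginal cell markers summed to 164959 to 220756 in old and 222231 to 240209 in young libraries, and 7 basal cell markers to 66982 to 74597 in old and 75103 to 77072 in young libraries. The sum over all genes was likewise lower in every old library, at 3.61e+07 to 3.70e+07 against 3.84e+07 to 3.97e+07 in young libraries. The sums of the 10 pigment genes overlapped between groups, at 211889 to 305292 in old and 224693 to 233557 in young libraries. Whether the lower marker sums are particular to these cell types was not tested. Of the marginal markers 1 fell, the sodium pump subunit gene Atp1b2 (log2 fold change -0.61, limma adjusted p = 0.0256), which makes up much of the marginal sum, and 0 rose, while 0 of the basal markers were called. Over all genes 5.25% were called. The call of Atp1b2 was lost without old replicate 1 (0.0812), young replicate 1 (0.0796), young replicate 2 (0.109) or young replicate 3 (0.125). It was also lost with quantile normalisation (log2 fold change -0.34, limma adjusted p = 0.195). Sums over 10 neuron markers were 783 to 5986 in old and 484 to 846 in young libraries. Old replicate 3 stood apart in Xist, at 45.2 against 24382 to 29162 in the other 5 libraries. Sums over 10 neutrophil genes were 963 to 11189 in old and 399 to 577 in young libraries, and sums over 10 red cell genes were 7145 to 43393 in old and 2896 to 4969 in young libraries. Values without each library are therefore given where they end a call.

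The pigment genes of the lateral wall ranged from very abundant to barely detected, in old and young mice alike. Levels were compared per kilobase of exon and per library size (RPKM, computed from the recovered reads). Dct was the highest at 743 ± 127 in old and 737 ± 19.8 in young mice, and over the 6 libraries it ranked 35 of 16799 genes with a known exon length and took 0.436% of all reads. In young mice Slc45a2 (135 ± 8.67), Gpnmb (116 ± 8.07), Tyr (47.2 ± 5.89) and Mlana (35.5 ± 2.42) followed in that order without overlap between neighbours. In old mice Slc45a2 (210.3 ± 31.5) and Gpnmb (210.3 ± 58.4) overlapped, and so did Mlana (81.1 ± 14.3) and Tyr (74.6 ± 21.2). Slc24a5 stood between these and the rest, at 4.30 ± 0.448 in old and 4.51 ± 0.611 in young mice. Pmel, Trpm1, Tyrp1 and Oca2 were all below 1 in every library. With the longest coding transcript in place of the whole exon length, Gpnmb ranked above Slc45a2 in both groups, so the order of these 2 depends on which length is used.

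**Figure D1:**
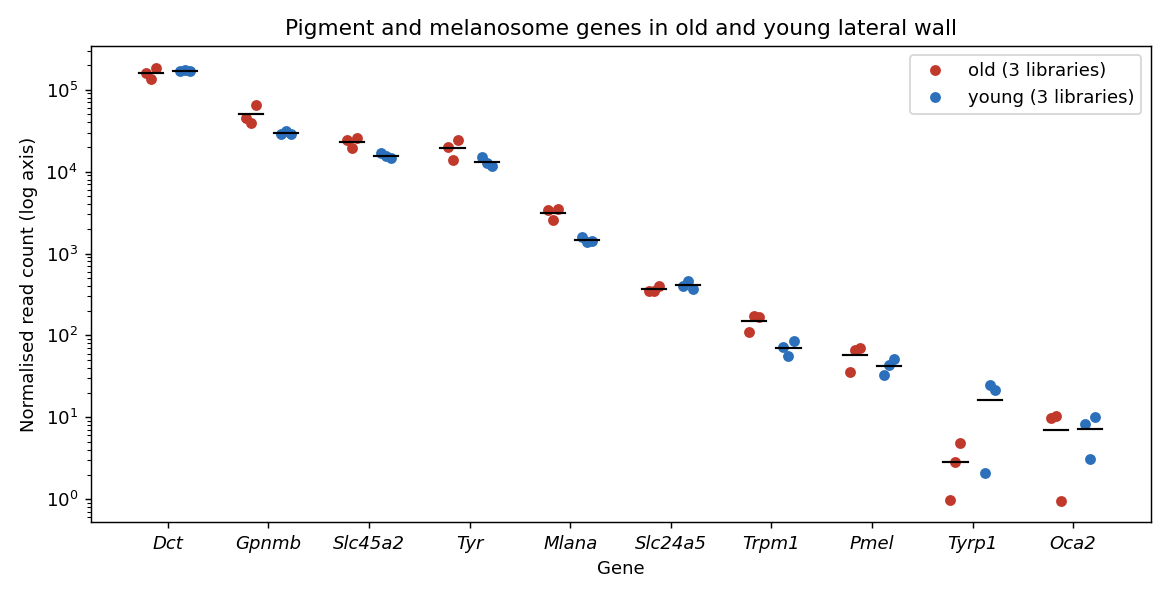
Normalised read counts (log axis) of the 10 pigment genes in each library, old left of young, with black bars at the group means. The genes span from about 1 count for Tyrp1 and Oca2 to between 135921 and 186382 for Dct, and the old points of Mlana, Slc45a2, Gpnmb and Trpm1 all lie above the young ones.

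Of the 10 genes, 3 rose in old lateral wall and 0 fell with limma (Benjamini-Hochberg adjusted p under 0.05 over all genes), and 7 did not pass. Over all genes, 5.25% were called and 2.71% were called higher. The median log2 fold change, old minus young, was 0.47 over the 10 genes and -0.000969 over all genes. The 3 that rose were Mlana (chromosome 19, 29697824 to 29708634), Slc45a2 (chromosome 15, 11000721 to 11029233) and Gpnmb (chromosome 6, 49036546 to 49070929), all on the plus strand of GRCm38 (mm10) in GENCODE M21, and values are counts over the whole gene. In these 3 and in Trpm1 every old library lay above every young one, against 26.1% of all genes whose groups did not overlap and 13.2% with all old libraries above. In bulk tissue a change in the number of intermediate cells and a change in RNA per cell cannot be told apart.

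**Figure D2:**
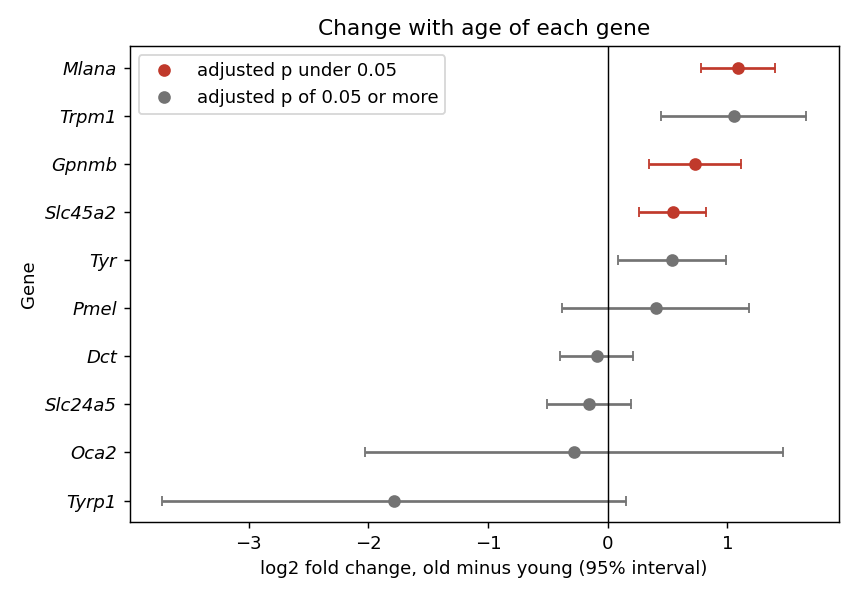
log2 fold changes, old minus young, of the 10 pigment genes with 95% intervals from the limma fit, red where the adjusted p is under 0.05. Mlana, Slc45a2 and Gpnmb are red, the intervals of Trpm1 and Tyr lie above 0 without a call, and Tyrp1 and Oca2, with few reads, have the widest intervals.

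The 3 enzymes of the tyrosinase family differed widely in level although their promoters share a motif. The 250 bases before the RefSeq transcription start (GRCm38.p6) are shown for all 3 because each holds CATGTG, the core of the box through which the melanocyte factor Mitf is known to act on pigment genes. Capitals mark CATGTG on either strand. Tyr lies on chromosome 7 (minus strand, window chr7:87493513-87493762), Tyrp1 on chromosome 4 (plus strand, window chr4:80833963-80834212) and Dct on chromosome 14 (minus strand, window chr14:118052247-118052496).
Tyr: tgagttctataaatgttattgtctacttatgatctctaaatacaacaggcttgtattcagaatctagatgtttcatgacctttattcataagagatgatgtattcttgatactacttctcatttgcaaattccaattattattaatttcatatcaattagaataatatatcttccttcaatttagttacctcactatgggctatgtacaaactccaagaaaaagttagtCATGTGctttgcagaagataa
Tyrp1: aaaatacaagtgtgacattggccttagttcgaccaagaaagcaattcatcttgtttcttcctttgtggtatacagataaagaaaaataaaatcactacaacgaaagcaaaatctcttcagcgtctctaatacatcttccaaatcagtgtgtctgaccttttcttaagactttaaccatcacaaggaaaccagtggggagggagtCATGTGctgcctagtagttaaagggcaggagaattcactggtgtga
Dct: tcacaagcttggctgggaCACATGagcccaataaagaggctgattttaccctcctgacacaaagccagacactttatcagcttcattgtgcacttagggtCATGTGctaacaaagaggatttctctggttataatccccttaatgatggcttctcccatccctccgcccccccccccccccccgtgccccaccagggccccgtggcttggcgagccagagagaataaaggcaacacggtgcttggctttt
The motif begins 21 bases before the start in Tyr and 46 bases before it in Tyrp1, and in Dct it begins 150 bases before the start, with a copy on the other strand 232 bases before it. The longest run around the core that all 3 share is GTCATGTGCT, found by comparing these windows with each other, and it occurs in 0.155% of 32851 promoter windows of the same length (both strands). The core alone occurs in 12.3% of them, and CACGTG, its close relative, in 6.02%. Promoters of 7 of the 10 genes were in the RefSeq table, and those of Oca2, Slc24a5 and Trpm1 also hold CATGTG or CACGTG, which 17.6% of all windows do. The window of Gpnmb holds neither.

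Dct, dopachrome tautomerase, converts dopachrome in the middle of the pathway. It stood at 158580, 135921 and 186382 normalised read counts in old replicates 1, 2 and 3, against 168968, 172081 and 167796 in young replicates 1, 2 and 3. The young libraries lay within a narrow band that the old ones spanned on both sides. The log2 fold change was -0.09 with a 95% interval of -0.40 to 0.21 (limma adjusted p = 0.747), and it was 0.06 with quantile normalisation and 0.02 without old replicate 2, on the other side of 0.

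Tyr, tyrosinase, carries out the first and rate-limiting steps of melanin synthesis. It stood at 20047, 13804 and 24342 in old replicates 1, 2 and 3, against 15080, 12662 and 11569 in young replicates 1, 2 and 3. Old replicates 1 and 3 lay above all young libraries and old replicate 2 did not. The log2 fold change was 0.54 ± 0.20 (SE, limma adjusted p = 0.168), and only without old replicate 2 did Tyr pass among the runs that left out 1 library (0.76, adjusted p = 0.0131).

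Tyrp1, which in mice oxidises an indole intermediate to brown-black pigment, was close to absent. It had 1, 3 and 5 reads in old replicates 1, 2 and 3, against 2, 24 and 21 reads in young replicates 1, 2 and 3. Per 1000000 recovered reads that is 0.0263 to 0.133 in old libraries and 0.0529 to 0.648 in young ones, with exact binomial 95% intervals of 0.0432 to 0.311 for the highest old and 0.415 to 0.964 for the highest young library. Young replicate 1 lay within the range of the old libraries, and the log2 fold change of -1.79 ± 0.86 did not pass (SE, limma adjusted p = 0.271). In the same libraries Dct had between 143738 and 193986 reads.

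Mlana rose, whereas the fibril gene Pmel did not pass. Mlana encodes MART-1, a melanosome membrane protein that binds Pmel and aids its maturation. It stood at 3353, 2537 and 3519 in old replicates 1, 2 and 3, against 1606, 1387 and 1402 in young replicates 1, 2 and 3. Every old library was well above every young one, the ratio of means was 2.14 and the log2 fold change was 1.09 ± 0.14 (SE, limma adjusted p = 0.00392). Mlana kept its call under all 16 other settings, with log2 fold changes of 0.996 to 1.23. Pmel, the fibril protein, stood at 35.9, 66.2 and 71.1 in old mice, against 32.5, 43.6 and 51.1 in young mice. Its groups overlapped (log2 fold change 0.40 ± 0.35, adjusted p = 0.558). Exons of Pmel overlap those of Cdk2 and Dgka on the opposite strand, and no label says if strand was kept, so its few reads are uncertain.

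Among the transporters, Slc45a2 rose, while Slc24a5 and Oca2 did not pass. Slc45a2 is a melanosome membrane protein needed for a less acidic lumen, in which tyrosinase is active. It stood at 24097, 19339 and 25456 in old replicates 1, 2 and 3, against 17030, 15360 and 14711 in young replicates 1, 2 and 3. The groups did not overlap, the ratio of means was 1.46 and the log2 fold change was 0.54 ± 0.13 (SE, limma adjusted p = 0.0409). This call was lost without old replicate 1 (0.106), old replicate 3 (0.0798), young replicate 1 (0.0730), young replicate 2 (0.144) or young replicate 3 (0.189), with log2 fold changes of 0.46 to 0.60 in these runs.

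Slc24a5, a potassium-dependent sodium-calcium exchanger, stood at 345, 351 and 405 in old mice, against 396, 466 and 368 in young mice. The groups overlapped and the log2 fold change was -0.15 with a 95% interval of -0.51 to 0.20 (limma adjusted p = 0.626). Its exons overlap those of Myef2 on the opposite strand. Oca2, an anion channel of the melanosome that raises its pH, stood at 9.70, 10.4 and 0.961 in old mice, against 8.39, 3.11 and 10.2 in young mice. The lowest value belonged to old replicate 3, and the log2 fold change was -0.29 ± 0.77, or 0.55 without that library (limma adjusted p = 0.876 and 0.647). A difference in Oca2 was not detectable at this depth.

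Trpm1 encodes a cation channel that melanocytes and retinal bipolar cells express, and its gene hosts the microRNA gene Mir211 in an intron. It stood at 109, 170.2 and 169 in old replicates 1, 2 and 3, against 72.4, 56.0 and 84.7 in young replicates 1, 2 and 3. The groups did not overlap and the ratio of means was 2.10, but the log2 fold change of 1.05 ± 0.27 did not pass (SE, limma adjusted p = 0.0593). It passed without old replicate 1 (adjusted p = 0.0330), with DESeq2 on the recovered reads (0.00764), which called 4 of the 10 genes and 10.9% of all genes, and, at 0.00778, in the authors' deposited table. Its exons overlap an unnamed model on the opposite strand.

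Gpnmb, a melanosome glycoprotein that macrophages and osteoclasts also express, rose. It stood at 45603, 39688 and 64941 in old replicates 1, 2 and 3, against 28649, 31474 and 28680 in young replicates 1, 2 and 3. All old libraries were above all young ones, with old replicate 3 the highest, and the ratio of means was 1.69. The log2 fold change was 0.73 ± 0.17 (SE, limma adjusted p = 0.0431). The call was lost without old replicate 1 (0.0653), young replicate 1 (0.113), young replicate 2 (0.117) or young replicate 3 (0.166), while the log2 fold change in all runs without 1 library stayed between 0.52 and 0.88.

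Most macrophage markers were also higher in old lateral wall. Of 20 macrophage markers, 16 rose and 0 fell, against 5.25% of all genes called and 2.71% called higher. Their median log2 fold change was 1.12, and their summed level was 30980 to 44170 in old and 10366 to 12047 in young libraries. Lyz2, which encodes lysozyme, averaged 16286 ± 4688 in old and 1876 ± 276 in young mice, and the lysosomal protein gene Cd68 averaged 1737 ± 281 in old and 387 ± 36.5 in young mice (SD, n = 3 each). A list of 14 genes of lipid-laden macrophages summed to 518894 to 609778 in old and 521042 to 580453 in young libraries. Most of that sum was Spp1 (335146 ± 34912 in old and 337415 ± 25408 in young mice) and Apoe (124018 ± 19135 and 115492 ± 2003), neither of which was called. Of the 14 genes, 7 rose and 0 fell, and in 10 every old library lay above every young one, against 13.2% of all genes. Among those that rose were Itgax, which averaged 399 ± 162 in old and 5.52 ± 0.527 in young mice, and Clec7a, which averaged 404 ± 97.4 in old and 29.6 ± 8.54 in young mice. Of 8 osteoclast markers in the table, 2 rose and 1 fell, and their sum was 2546 to 4272 in old and 2328 to 2433 in young libraries. The osteoclast markers that rose were Atp6v0d2, which averaged 512 ± 281 in old and 4.15 ± 1.09 in young mice, and Acp5, which averaged 692 ± 282 in old and 163 ± 18.4 in young mice. Ctsk fell, from 1053 ± 37.1 in young to 713 ± 57.8 in old mice, a call kept in 1 of the 6 runs without 1 library. The osteoclast genes Ocstamp and Oscar had few counts, with group means of 1.05 to 4.16, and were at 0 in at least 1 library. The part of macrophages or osteoclasts in the rise of Gpnmb was not tested.

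The pigment genes were next set against Dct within each library, a ratio that the scaling of libraries does not touch. For each 1000 normalised counts of Dct, Mlana had 21.1, 18.7 and 18.9 in old replicates 1, 2 and 3, against 9.51, 8.06 and 8.36 in young replicates 1, 2 and 3. Slc45a2 had 152, 142 and 137 in old libraries, against 101, 89.3 and 87.7 in young ones. Gpnmb had 288, 292 and 348 in old libraries, against 169.6, 182.9 and 170.9 in young ones. Tyr had 126, 102 and 131 in old libraries, against 89.3, 73.6 and 69.0 in young ones, so that Tyr, whose counts overlapped between groups, did not overlap as a ratio.

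The difference in the mean log2 ratio to Dct, old minus young, was 1.18 for Mlana, 1.14 for Trpm1, 0.82 for Gpnmb, 0.63 for Slc45a2 and 0.63 for Tyr. For these 5 of 9 ratios all old libraries lay above all young ones, as they did in 14.5% of all genes. Each reached p = 0.1 in a two-sided exact permutation test, the smallest that 3 against 3 libraries allow (0.18 adjusted over the 9 ratios). The ratio of Slc24a5 to Dct differed by -0.06 (exact permutation p = 0.5). Against Kcnj10 in place of Dct the same 5 genes again lay higher in every old library, as did 7.96% of all genes, with differences of 1.16 for Mlana, 1.12 for Trpm1, 0.80 for Gpnmb, 0.61 for Slc45a2 and 0.61 for Tyr. Both sets of ratios share the same counts of these genes.

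**Figure D3:**
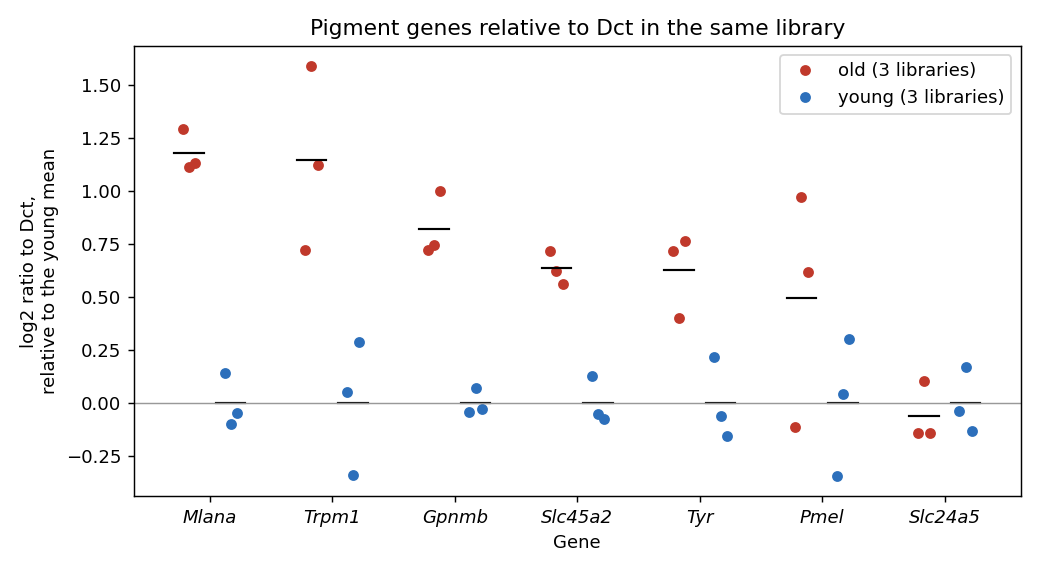
log2 ratio of 7 pigment genes to Dct in the same library, relative to the mean of the young libraries, old left of young, with black bars at the group means. The old points of Mlana, Trpm1, Gpnmb, Slc45a2 and Tyr all lie above the young points, whereas those of Pmel and Slc24a5 overlap with them; Tyrp1 and Oca2 are left out for their few reads.

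The old libraries differed from each other in most of the abundant pigment genes in the same order. Dct, Tyr, Mlana, Slc45a2 and Gpnmb, 5 of the 8 members averaging 50 or more, were highest in old replicate 3 and lowest in old replicate 2, an order that 22.2% of all genes at that level showed. Deviations from the old mean on the log2 scale were 0.41 and -0.30 for Gpnmb and 0.37 and -0.45 for Tyr in old replicates 3 and 2. Among other genes averaging 50 or more, 4 of 7 non-pigment genes of intermediate cells and 4 of 9 melanocyte regulators showed the same order. Kcnj10 was among them (0.48 and -0.47), while Kcnk2 (0.57) and Kit (0.65) were highest in old replicate 2. Slc24a5, Trpm1 and Pmel were instead lowest in old replicate 1. Of 11 marginal cell markers at that level, 8 likewise had the order of old replicate 3 highest and old replicate 2 lowest. So did all 9 neutrophil genes, all 6 red cell genes and 16 of 36 other melanosome genes. Fewer did among 20 macrophage markers (7), 13 genes of lipid-laden macrophages (1) and 7 basal cell markers (1). The part of tissue composition in this order was not tested.

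**Figure D4:**
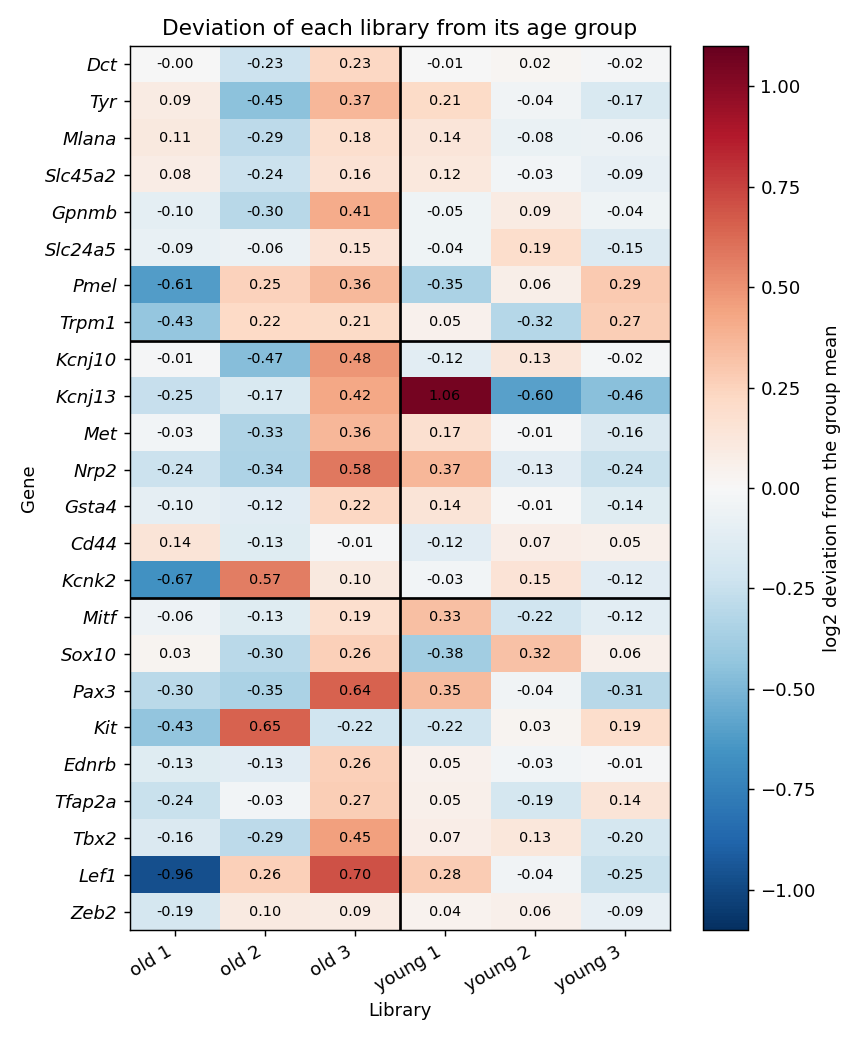
log2 deviation of each library from the mean of its age group for 8 pigment genes (top block), 7 non-pigment genes of intermediate cells (middle) and 9 melanocyte regulators (bottom), old libraries left of young. Dct, Tyr, Mlana, Slc45a2 and Gpnmb are below the old mean in old 2 and above it in old 3, Slc24a5, Pmel and Trpm1 are lowest in old 1, and Kcnk2 and Kit are highest in old 2.

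Other genes of melanosome assembly, transport and trafficking did not pass with limma. Of 37 listed genes 36 were in the table, and limma called 0 of them. With DESeq2 size factors edgeR called 0 (5.04% of all genes called), and DESeq2 called 1, Bloc1s5 (10.9% of all genes called). Of the 36, 8 had an unadjusted limma p under 0.05, as 21.3% of all genes did. The median log2 fold change of the 36 was 0.10, and 29 were above 0, against 49.8% of all genes. In 9 every old library lay above every young one, against 13.2% of all genes. The members with the smallest p were Bloc1s5, a subunit of the complex that sorts cargo to melanosomes, with 0.42 ± 0.11 (adjusted p = 0.0568), and Hps3, a subunit of another such complex, with 0.31 ± 0.11 (adjusted p = 0.141). Mitf, which encodes the transcription factor of melanocytes, stood at 9938, 9458 and 11781 in old replicates 1, 2 and 3, against 8854, 6060 and 6494 in young replicates 1, 2 and 3. Its groups did not overlap, and its log2 fold change of 0.56 ± 0.15 missed the threshold (adjusted p = 0.0746, range over other settings 0.0197 to 0.265).

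Regulators and non-pigment genes of intermediate cells were spread on both sides of 0. The endothelin receptor gene Ednrb and the receptor gene Kit had log2 fold changes of -0.37 ± 0.12 and -0.69 ± 0.26, and neither passed (limma adjusted p of 0.114 and 0.184). Sox10, a lineage factor, had -0.16 ± 0.20 (adjusted p = 0.699). Kcnj10 had -0.07 with a 95% interval of -0.56 to 0.42, and the potassium channel gene Kcnj13 had 0.05 with an interval of -1.04 to 1.13. Both changed sign under other settings. Of 7 listed non-pigment genes of intermediate cells 1 rose, against 2.71% of all genes called higher. It was the potassium channel gene Kcnk2, which averaged 428 ± 172 in old and 87.0 ± 8.59 in young mice (log2 fold change 2.20 ± 0.29, limma adjusted p = 0.00495).

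By the root mean square difference of centred log2 values over the 6 libraries, the members nearest to each other were Dct and Slc24a5 (0.126) and Tyr and Slc45a2 (0.132). Among 13308 genes averaging 50 or more, the 5 nearest to Gpnmb were Nacad, Gm2115, Nat8f3, Man2b1 and Ptprt, at 0.0595 to 0.0956. The 5 nearest to the mean of the other 9 members were Mthfsd, Ly75, Meaf6, Nudt13 and Il2ra, at 0.0339 to 0.0495, with log2 fold changes of 0.07 to 0.21, a mean to which the noisy values of Tyrp1 and Oca2 contribute.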

How the data were processed

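RNA was isolated with a miRNeasy kit and sequenced from TruSeq RNA libraries, per the labels' protocols. The submitters' processing notes name Partek, TopHat2, DESeq2 and the build mm10 but no roles, versions or annotation. The authors deposited 1 table whose values are a signal, read counts divided by a size factor, beside p-values (raw and adjusted) and a fold change whose sign gives the direction (a score). Division by the step between low values (0.946 to 1.05) gave numbers within 0.1 of a whole read in 99.9% of values. The deepest library had 1.055 times the reads of the shallowest. Binomial intervals cover counting error only, and limma intervals rest on the spread between mice.

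Old and young libraries were compared with limma 3.58.1 (R 4.3.3, trend and robust) on log2(value + 1), which understates the change of low genes, adjusted over all genes, two-sided, threshold 0.05. Other settings were limma without trend, quantile normalisation, a minimum mean of 10, pseudocounts of 0.1 and 10, the replicate block, leaving out each library, edgeR 4.0.16 and DESeq2 1.42.0 on recovered reads and the authors' p-values. Ratios within a library were compared with exact permutation tests. Libraries come from separate mice, and p-values rest on the spread between mice. All 10 members are named, and of other lists those with the smallest p, and by likeness the 5 nearest genes. The members and lists were chosen with earlier results of these data known. Exon lengths came from GENCODE M21 (GRCm38), which gave a position for 16799 symbols, and promoters from RefSeq. One marker gene outside the 10 is not reported here.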

Additional observations from a re-analysis of the deposited data

How the results depend on the processing

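Mlana was called under every setting tried, Gpnmb and Slc45a2 mainly where all 6 libraries entered, and the cause of lost calls was not tested. The count of pigment genes called, 3, was 1 with limma without trend and 1 with the replicate block, and 1 to 4 without 1 library. Of all genes, limma called 898, against 337 without trend, 406 with the replicate block, 1819 with DESeq2 on the recovered reads, 1818 in the authors' deposited table, and 230 to 1134 without 1 library. Of the 36 melanosome machinery genes DESeq2 and the authors' deposited table called 1 each against 0, and 0 to 0 were called without 1 library. Log2 fold changes that changed sign were those of uncalled genes: Dct (0.055 with quantile normalisation), Kcnj10 (0.013 with quantile normalisation) and Kcnj13 (-0.12 and -0.13 with edgeR under TMM and under DESeq2 size factors, -0.13 with DESeq2, -0.14 in the authors' deposited table). Without 1 library, Dct ranged from -0.21 to 0.020, Oca2 from -0.73 to 0.55, Kcnj10 from -0.31 to 0.17, Kcnj13 from -0.25 to 0.57 and Sox10 from -0.35 to 0.0013 (without young replicate 2). The replicate numbers come from the sample titles, which name no pairing. Deviations of same-numbered old and young libraries had correlations of -0.24, -0.10 and -0.09 across genes. Those of differently numbered libraries were of similar size, from -0.15 to 0.23, so these values cannot decide whether same-numbered libraries shared a batch. With the replicate block the adjusted p of Gpnmb was 0.0749 and that of Slc45a2 0.0741. With few reads, Tyrp1 and Oca2 allow no statement on a change with age.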
